A study of Sus scrofa with 4 samples.

Results

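The cells described here are the chondrocytes with high COL2A1 of pig (Sus scrofa) meniscus, that is, the cell barcodes in which COL2A1, the gene of the type II collagen chain, held at least 0.5% of the unique molecular identifiers (UMIs, the count of captured RNA molecules). Such a barcode also had at least 200 detected genes, at most 1 UMI of the endothelial genes PECAM1, PLVAP and VWF together, at most 1 UMI of the mural genes ACTA2, MYH11 and RGS5 together, and at most 2 UMIs of the macrophage genes C1QA, C1QB and C1QC together. The rule was met by 3355 of the 27727 barcodes with at least 200 genes, or 12.1%. The cells were thus chosen by their measured COL2A1 share and gate genes, so their COL2A1 level, and every difference from cells with less COL2A1, is given as a description with no test. COL2A1 lies on chromosome 5 at positions 78350131 to 78380893 of the RefSeq annotation of Sscrofa11.1.

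Medial and lateral menisci were each divided into a white and a red zone, and 1 single-cell library was made per meniscus and zone, giving the medial white, lateral white, medial red and lateral red zone library. The synovium had been taken off, and all cells came from tissue digested with Pronase and then Collagenase P, before capture with 10x Genomics 3' v3.1 chemistry. No strain, age or animal was named for any library. The p-values below therefore speak only for these 4 libraries, whose differences may be technical. In the edgeR test used below they rest almost wholly on a spread pooled over genes, and hardly on a gene's own spread between libraries. The animal, the meniscus and the digestion of a library cannot be told apart.

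The meniscus is a fibrocartilage pad of the knee whose outer red zone carries vessels and whose inner white zone does not. Hyaline cartilage is built from type II collagen fibrils that hold type XI collagen inside and carry type IX collagen on their surface, with aggrecan bound to hyaluronan between them. In the meniscus, cells with this cartilage matrix stand beside fibrochondrocytes, which make more type I collagen, and SOX9 is the transcription factor known to switch on COL2A1 and ACAN in chondrocytes.

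The libraries held 5753 to 7807 barcodes and 9666319 to 14902274 UMIs. The doublet caller Scrublet marked 0 barcodes in both white zone libraries and 1 in each red zone library, none of them a COL2A1-high cell, so that it has not worked here and doublets remained in the data. Library pairs shared 10 to 20 cell barcodes, and no barcode was a COL2A1-high cell in more than 1 library. Summed endothelial markers (PECAM1, PLVAP, VWF, CLDN5, EGFL7) stood at 6.35, 9.06, 0 and 20.3 CPM (counts of a gene per 1e6 UMIs of the summed cells) in the COL2A1-high cells of the medial white, lateral white, medial red and lateral red zone, and myeloid markers at 2.67, 1.92, 0 and 40.7 CPM. Fibroblast markers (PI16, MFAP5, DPT, SFRP2, CD34) summed to 11.02, 4.39, 0 and 20.3 CPM in COL2A1-high cells, against 82.8, 26.4, 2673 and 1395 CPM in the other cells that passed the same gates. Mural markers (ACTA2, MYH11, RGS5, TAGLN, NOTCH3) summed to 154, 82.9, 126 and 40.7 CPM, against 72.1, 54.5, 313 and 251 CPM, and B and plasma cell markers, to 109.6, 82.1, 63.0 and 61.0 CPM, against 58.9, 67.3, 296 and 1233 CPM. In COL2A1-high cells CD79A gave nearly all of the B and plasma cell sum. Both sums were higher in COL2A1-high cells than in the other gated cells of both white zone libraries, and their part in the results was not tested. The gates removed by rule what they count, so the low endothelial and myeloid sums are in part the rule itself.

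COL2A1-high chondrocytes were found almost wholly in the white zone. They numbered 1576 in the medial white and 1722 in the lateral white zone library, against 14 in the medial red and 43 in the lateral red zone library. As a share of barcodes this was 20.2% (95% exact Clopper-Pearson interval 19.3 to 21.1%) in the medial white and 23.3% (22.4 to 24.3%) in the lateral white zone, against 0.205% (0.112 to 0.344%) in the medial red and 0.752% (0.545 to 1.01%) in the lateral red zone. Both white zone shares lay above both red zone shares, and the white zone held 3298 of the 3355 cells, or 98.3%. An exact permutation of 2 against 2 libraries cannot give a two-sided p below 0.33, so no test was made. All intervals cover counting error only, since fewer such cells in the tissue and fewer released by digestion cannot be told apart.

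The same COL2A1 threshold was applied to barcodes that carry gate genes, as a level in cells that should lack COL2A1. Among barcodes with at least 3 UMIs of the endothelial gate genes, 8 of 258 (3.10%) in the medial white and 6 of 155 (3.87%) in the lateral white zone reached 0.5% COL2A1, against 1 of 880 in the medial red and 0 of 734 in the lateral red zone, the last of which allows a share of up to 0.409% (here and below, a count of 0 is given the limit of 3 cells of the total). Median depth was 1601.5 and 1735 UMIs in the COL2A1-high cells of the medial and lateral white zone, against 1505.5 and 1108 UMIs in these endothelial barcodes. Barcodes with at least 3 UMIs of the C1Q genes reached the threshold in 1 of 56 and 3 of 63 cases in the medial and lateral white zone, and those with at least 3 UMIs of ACTA2 and MYH11 in 4 of 35 (11.4%, interval 3.20 to 26.7%) and 2 of 56 (3.57%). The medial white interval of the last set takes in the 20.2% of all barcodes. With RGS5 counted, the mural set stood at 43.1 and 37.8% and all gate sets together at 27.2 and 24.1%, above the shares of all barcodes, and the cells with RGS5 are described below. Free RNA or doublets in the white zone libraries were not separated from the signal, and their part in the 20.2% and 23.3% was not tested.

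The cells in the red zone were few but strong in COL2A1. The median COL2A1 share of UMIs in COL2A1-high cells was 1.71% in the medial white, 1.21% in the lateral white, 2.25% in the medial red and 2.17% in the lateral red zone, with maxima of 13.2, 13.2, 11.3 and 9.29%. Median COL2A1 counts were 30, 25, 20.5 and 49 UMIs per cell, at median depths of 1601.5, 1735, 1112.5 and 2074 UMIs. These cells held 71.6, 74.7, 73.6 and 90.9% of all COL2A1 UMIs of their libraries. The other gated cells had no COL2A1 UMI in 70.5, 55.0, 98.8 and 97.9% of barcodes.

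**Figure D1:**
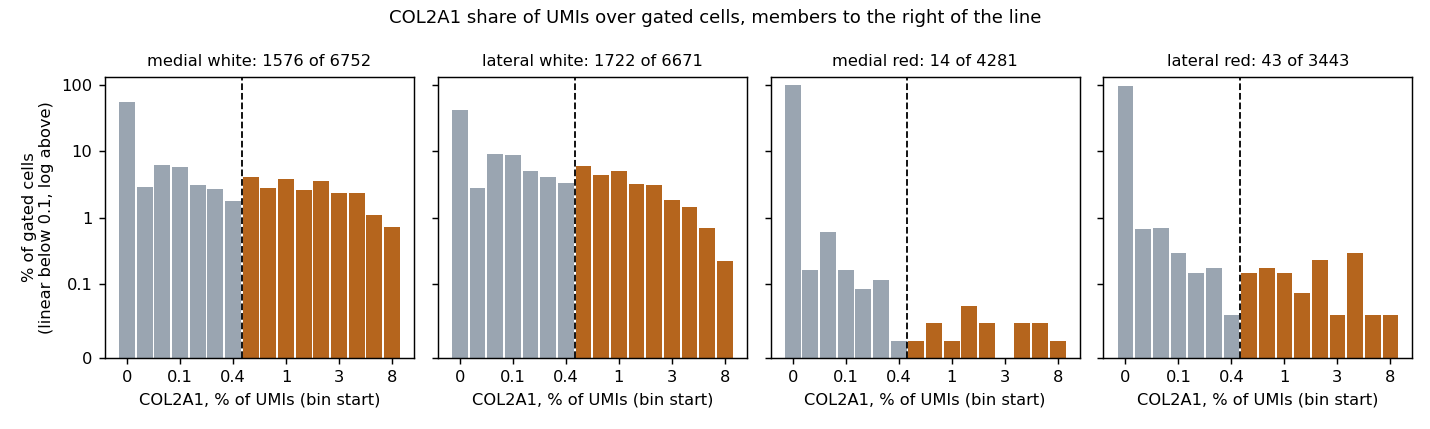
Share of gated cells (y axis, percent, linear below 0.1 and logarithmic above) by COL2A1 as a percent of a cell's UMIs (x axis), with 1 panel per library and a dashed line at the threshold of 0.5%. In both white zone libraries the cells spread without a gap across the line up to 13.2%, while the red zone panels hold 14 and 43 cells to its right.

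In the white zone no gap separated these cells from those with less COL2A1. In the band of 0.5 to 0.6% COL2A1 there were 111 cells in the medial white and 181 in the lateral white zone, and just below the threshold, at 0.4 to 0.5%, there were 120 and 223. SNORC stood at 677 and 641 CPM just inside the threshold and at 473 and 592 CPM just outside it, and ACAN at 2542 and 2323 CPM inside and 2032 and 2268 CPM outside, in the medial and lateral white zone. COL9A1 stood at 56.4 and 96.5 CPM inside and at 42.6 and 73.4 CPM outside. In the white zone libraries the cells were therefore a range of COL2A1 content with no edge at the threshold, and the part of free RNA or doublets in this range was not tested. In the medial and lateral red zone 98.5 and 96.7% of gated cells lay below 0.02% COL2A1, and 1 and 2 cells lay at 0.4 to 0.5%. These were too few to judge an edge there.

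The other cartilage markers followed COL2A1 in all 4 libraries. The rule did not use these 4 markers, but they were given with the label, and the cells were chosen with earlier results of these data known. Their levels are therefore a description and no independent support for the label. COL2A1 itself had 23993 (95% Poisson interval 23817 to 24169), 16751, 34902 and 29454 CPM in COL2A1-high cells of the medial white, lateral white, medial red and lateral red zone, against 526, 1014, 15.1 and 24.7 CPM in the other gated cells. SNORC, a small membrane proteoglycan of chondrocytes, had 1279 (1239 to 1320), 1009 (977 to 1042), 1575 (1019 to 2325) and 915 (736 to 1124) CPM, against 103, 253, 2.99 and 5.45 CPM. COL9A1, a chain of type IX collagen, had 424 (401 to 447), 231 (216 to 247), 252 (68.7 to 645, from 4 UMIs) and 468 (342 to 624) CPM, against 8.07, 21.2, 0.570 and 4.26 CPM. In each library both genes were above the level of the other gated cells, and the 14 cells of the medial red zone gave the widest intervals. MIA, a secreted protein of cartilage also known as CD-RAP, had 287, 412, 441 and 671 CPM, against 53.2, 208, 6.55 and 12.8 CPM in the other gated cells. ACAN, the core protein of aggrecan, had 3666, 2918, 3654 and 1921 CPM, against 1008, 1368, 290 and 324 CPM. In the white zone MIA and ACAN were thus also present in cells below the threshold, while COL9A1 was low there.

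An ACAN or SNORC molecule was captured in most COL2A1-high cells of each library, and one of COL9A1 in fewer, from 14.3% in the medial red to 53.5% in the lateral red zone. At least 1 SNORC UMI was seen in 72.3, 73.3, 71.4 and 79.1% of COL2A1-high cells of the medial white, lateral white, medial red and lateral red zone, against 4.14, 10.1, 0.631 and 0.0832% of the barcodes with at least 3 UMIs of the endothelial or the C1Q gate genes, whose median depth was 1423, 1325, 1524 and 1348 UMIs. All 4 shares of COL2A1-high cells were far above those of the vessel and macrophage barcodes. For COL9A1 the shares were 38.1, 30.8, 14.3 and 53.5%, against 0.955, 1.84, 0.0701 and 0.166%. ACAN was seen in 94.4, 93.9, 85.7 and 88.4% of COL2A1-high cells, against 14.3, 13.8, 3.71 and 2.66%. The other gated cells stood nearer, with ACAN in 63.6 and 68.4% and SNORC in 11.7 and 24.6% of them in the medial and lateral white zone. Capture of ACAN was thus common in white zone cells below the threshold too. In the medial and lateral red zone the other gated cells had ACAN in 21.8 and 25.7% and SNORC in 0.398 and 0.735%. Thinned to 1000 UMIs per cell, with 131, 117, 4 and 1 shallower cells left out, the SNORC shares were 59.7, 56.2, 70 and 59.5%, and the COL9A1 shares 26.8, 19.8, 10 and 42.9%. COL10A1, the collagen of hypertrophic cartilage, had no UMI in any COL2A1-high cell, which allows a share of cells with a UMI of up to 0.190% in the medial white and 0.174% in the lateral white zone. It also had none in the other gated cells or in the vessel and macrophage barcodes of any library, so its absence did not set these cells apart. Whether the feature can be captured in these data was not tested.

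**Figure D2:**
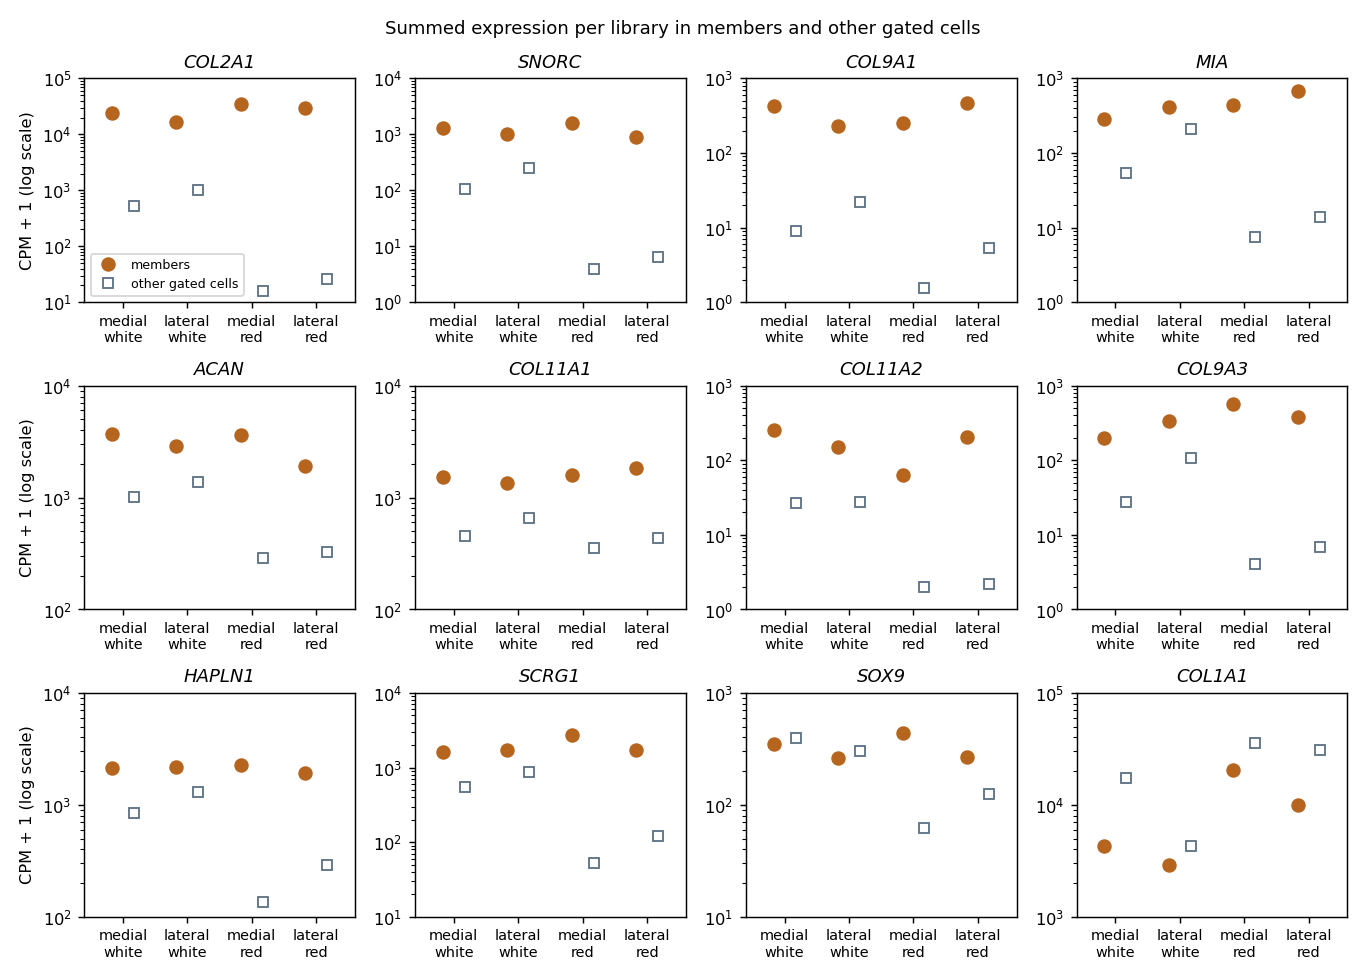
Levels of 12 genes (11 matrix and secreted genes and SOX9) in each library (y axis, CPM + 1, logarithmic), with COL2A1-high cells as filled circles and the other gated cells as open squares. COL2A1, SNORC, COL9A1, MIA and ACAN are higher in COL2A1-high cells of all 4 libraries, SOX9 is at 346 against 397 and at 261 against 304 CPM in the medial and lateral white zone, and COL1A1 is lower in COL2A1-high cells.

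Collagens of the cartilage fibril went with COL2A1. The contrast with the other gated cells of the same library is the one that chose the cells, so counts over genes are printed here only as a background. Of 2439 genes compared, 35 (1.44%) were at least 1.5-fold higher and 93 (3.81%) at least 1.5-fold lower in COL2A1-high cells of both white zone libraries, with 20 CPM added to both sides, and 9 (0.369%) were at least 2-fold higher and 17 (0.697%) at least 2-fold lower. On this scale, which understates the fold of low genes, COL9A1 was 15.8-fold higher in the medial white and 6.09-fold in the lateral white zone, SNORC 10.6-fold and 3.77-fold, COL11A2 6.05-fold and 3.63-fold, and COL9A3 4.68-fold and 2.76-fold. COL11A2 and COL11A1 are chains of type XI collagen, and COL9A3 is a chain of type IX collagen. COL11A1 had 1539 and 1355 CPM in COL2A1-high cells of the medial and lateral white zone, against 455 and 662 CPM in the other gated cells. Of the 5 compared members of the cartilage fibril collagen list, 4 were at least 1.5-fold higher in both and COL27A1, another cartilage collagen, had 74.8 and 56.3 CPM, against 44.2 and 52.4 CPM. The median log2 difference was 1.85 over the list and -0.07 over all 2439 genes.

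The proteoglycan and glycoprotein part of the cartilage matrix was higher less evenly. Of 11 compared members of the non-collagen cartilage matrix list, 6 were at least 1.5-fold higher in both white zone libraries and 0 lower, with a median log2 difference of 0.98. HAPLN1, the link protein that fixes aggrecan to hyaluronan, had 2114, 2175, 2268 and 1941 CPM in COL2A1-high cells of the medial white, lateral white, medial red and lateral red zone, and 850 and 1295 CPM in the other gated cells of the medial and lateral white zone. SCRG1, a small secreted protein first seen in scrapie brain and induced in chondrogenesis, had 1604, 1707, 2709 and 1738 CPM, against 551, 870, 51.7 and 120 CPM. CHAD and PRELP, leucine-rich matrix proteins, were near the level of the other gated cells, with log2 differences of 0.25 and 0.29 for CHAD and of -0.53 and 0.07 for PRELP in the medial and lateral white zone. MATN1 and EPYC, found in other hyaline cartilages, were too low to compare.

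Among sulfation and chain-starting enzymes, PAPSS2, which makes the sulfate donor for chondroitin sulfate, had 284 and 189 CPM in COL2A1-high cells of the medial and lateral white zone, against 102 and 78.0 CPM. XYLT1, which starts the glycosaminoglycan chain on core proteins, had 252 and 239 CPM, against 126 and 132 CPM. These were the 2 of 5 compared genes of the chondroitin sulfate list that were at least 1.5-fold higher in both libraries. S100A1, a calcium-binding protein, had 944 and 960 CPM, against 273 and 455 CPM.

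In the white zone the transcription factors behind the cartilage programme did not set these cells apart. SOX9 had 346, 261, 441 and 264 CPM in COL2A1-high cells of the medial white, lateral white, medial red and lateral red zone, against 397, 304, 60.7 and 123 CPM in the other gated cells, so that it was slightly below them in both white zone libraries and above them in both red zone libraries. SOX5 and SOX6, which act with SOX9, had log2 differences of 0.32 and 0.37 in the medial and of -0.05 and -0.31 in the lateral white zone. Of 7 compared members of the chondrogenic transcription factor list, 0 passed 1.5-fold in either direction in both white zone libraries, with a median log2 difference of -0.11.

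Type I collagen was lower in COL2A1-high cells but rarely absent from the red zone ones. COL1A1 had 4307, 2892, 20349 and 9899 CPM in COL2A1-high cells of the medial white, lateral white, medial red and lateral red zone, against 17255, 4309, 35314 and 30855 CPM in the other gated cells. COL1A1 exceeded COL2A1 in 137 of the COL2A1-high cells of the medial white (8.69%), 106 of the lateral white (6.16%), 4 of the medial red (28.6%) and 10 of the lateral red zone (23.3%). It had no UMI in 55.7, 44.4, 0 and 4.65% of them. COL1A2 and COL3A1, partners in fibrous matrix, did not follow one direction, with log2 differences of -1.01 and 0.14 for COL1A2 and of -0.59 and 0.51 for COL3A1 in the medial and lateral white zone. Of 17 compared fibrous matrix genes, 1 (COL12A1) was at least 1.5-fold lower in both and 0 were higher, with a median log2 difference of -0.36.

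Genes of fibrocartilage split. CILP, cartilage intermediate layer protein, had 2568 and 619 CPM in COL2A1-high cells of the medial and lateral white zone, against 1375 and 341 CPM in the other gated cells, and CHADL, a leucine-rich matrix protein, was also at least 1.5-fold higher in both. Of 14 compared genes of the fibrocartilage and leucine-rich list these were the 2 higher ones, and 5 (ASPN, LUM, OGN, OMD and THBS4) were at least 1.5-fold lower in both libraries. ASPN, asporin, had 181 and 44.5 CPM in COL2A1-high cells, against 505 and 151 CPM. THBS4, a thrombospondin of tendon and ligament, had 693 and 455 CPM, against 2097 and 1162 CPM, and OMD, osteomodulin, had 369 and 180.4 CPM, against 873 and 301 CPM. COMP, a pentameric matrix protein, had 18727 and 12245 CPM, against 16515 and 9270 CPM.

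Most compared interferon-response genes were lower in COL2A1-high cells. ISG12(A), an interferon-induced gene, had 14.4 and 20.04 CPM in COL2A1-high cells of the medial and lateral white zone, against 141 and 155 CPM in the other gated cells. IFI6, an interferon-induced mitochondrial protein, had 149 and 221 CPM, against 541 and 908 CPM, and B2M, the light chain of MHC class I, had 755 and 626 CPM, against 1742 and 1385 CPM. Of 6 compared genes of the interferon list, 4 were at least 1.5-fold lower in both libraries, with a median log2 difference of -0.95. CRABP1, a retinoic acid carrier, had 25.1 and 34.9 CPM, against 197 and 214 CPM, and S100A4 had 96.9 and 82.9 CPM, against 481 and 272 CPM.

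In the secretory and metabolic lists single genes passed 1.5-fold, while more of the protease and TGF-beta genes were lower. P4HA2, a collagen prolyl hydroxylase subunit, was the 1 of 22 compared endoplasmic reticulum and collagen-processing genes that passed 1.5-fold in both white zone libraries, with 294 and 269 CPM in COL2A1-high cells against 142 and 150 CPM. GAPDH, a glycolytic enzyme, was the 1 of 16 hypoxia and glycolysis genes, with 5043 and 8022 CPM against 2823 and 4920 CPM. ASNS, asparagine synthetase, was the 1 of 13 amino acid stress genes, with 284 and 188 CPM against 154 and 106 CPM. GDF5, a joint growth factor, was the 1 of 17 TGF-beta and BMP genes that was higher, with 62.5 and 52.7 CPM against 29.4 and 26.9 CPM, beside 3 that were lower. SQLE, squalene epoxidase of cholesterol synthesis, was the 1 of 4 lipid genes that was higher, beside FABP5 lower, and had 71.1 and 40.6 CPM, against 10.6 and 18.5 CPM. Median log2 differences were 0.11 for endoplasmic reticulum, -0.09 for glycolysis, 0.20 for amino acid stress, -0.17 for TGF-beta and BMP and 0.62 for lipid genes. Of 9 compared proteases and inhibitors 0 were higher and 3 lower, with a median log2 difference of -0.51, and MMP3, stromelysin, had 209 and 575 CPM, against 442 and 960 CPM.

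A sharper comparison is with the other matrix cells of these libraries that are high in CILP and OMD, taken as gated cells under 0.5% COL2A1 with CILP plus OMD at 0.3% of UMIs or more. There were 1403 and 220 such cells in the medial and lateral white zone and 7 and 4 in the medial and lateral red zone. Of 2518 genes, 31 (1.23%) were at least 2-fold higher and 59 (2.34%) at least 2-fold lower in COL2A1-high cells of both white zone libraries, again the contrast of the rule. SNORC was 13.0-fold and 5.98-fold higher, COL11A2 6.57-fold and 5.35-fold and ACAN 3.95-fold and 2.45-fold, in the medial and lateral white zone. Beyond the cartilage matrix, FBLN7, a fibulin, had 236 and 214 CPM in COL2A1-high cells against 75.6 and 57.4 CPM in CILP-high cells. ENPP2, autotaxin, which makes lysophosphatidic acid, had 175 and 229 CPM against 19.96 and 83.2 CPM. TXNIP, which binds thioredoxin and restrains glucose uptake, had 279 and 229 CPM against 112 and 91.8 CPM. On the lower side stood IGFBP6, an IGF-binding protein, with 415 and 268 CPM against 2427 and 1666 CPM, ANGPTL7, a secreted angiopoietin-like protein, with 98.9 and 28.8 CPM against 677 and 545 CPM, and CDH13, a cadherin without a cytoplasmic tail, with 212 and 109 CPM against 748 and 445 CPM.

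High CILP and OMD also occurred within the COL2A1-high cells. CILP plus OMD reached 0.3% of UMIs in 599 of the 1576 COL2A1-high cells of the medial white zone (38.0%) and in 108 of the 1722 of the lateral white zone (6.27%), and in 0 of the 14 and 0 of the 43 of the red zone libraries, which allows up to 21.4% and 6.98%. Among the other gated cells the same level was reached in 27.1% of the medial white, 4.45% of the lateral white, 0.164% of the medial red and 0.118% of the lateral red zone. In both white zone libraries the share was thus higher among COL2A1-high cells than among the other gated cells, and in both cell groups it was higher in the medial library.

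Within the COL2A1-high cells, the other cartilage collagens climbed with COL2A1. The cells of each white zone library were divided into bands of 0.5 to 1, 1 to 2, 2 to 4 and at least 4% COL2A1, with 459, 435, 401 and 281 cells in the medial and 686, 550, 327 and 159 cells in the lateral white zone, and levels were taken with COL2A1 left out of the totals. The red zone had 14 or fewer cells in any band and was not divided. Of 904 genes, 79 (8.74%) climbed and 20 (2.21%) declined through all 4 bands in both libraries. The bands are cut from the measure of the rule, so these orders carry no test.

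From the lowest to the highest band, COL9A1 had 120, 263, 588 and 1061 CPM in medial and 133, 211, 379 and 628 CPM in lateral white zone cells. COL11A2 had 124, 226, 328 and 480 CPM in medial and 102, 140, 194 and 391 CPM in lateral cells, and SNORC 685, 1025, 1687 and 2364 CPM in medial and 805.5, 969.9, 1271 and 2057 CPM in lateral white zone cells. All 4 compared fibril collagens and 5 of 9 compared non-collagen cartilage matrix genes were ordered upwards in both. ACAN had 2509.8, 3234, 4382 and 5972 CPM in medial and 2543, 2861, 3528 and 4743 CPM in lateral white zone cells, and CLEC3A, a cartilage lectin, had 491, 573, 683 and 939 CPM in medial and 260.1, 346, 513 and 701 CPM in lateral cells. SOX9 showed no such order, with 359, 347, 367 and 340 CPM in medial and 278, 271, 256 and 192 CPM in lateral white zone cells.

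Genes that declined with COL2A1 included B2M and, of the listed genes, 2 of 3 compared interferon genes and 2 of 6 inflammatory genes. B2M had 1078, 860, 618 and 303 CPM in medial and 758, 615, 482 and 360 CPM in lateral white zone cells, and IGFBP6 had 604, 492, 336 and 117 CPM in medial and 310, 271, 245 and 123 CPM in lateral cells. The feature named HPS5 had 30993, 25691, 14256 and 5591 CPM in medial and 131952, 106140, 74412 and 44009 CPM in lateral white zone cells. Since HPS5 takes up so much of the lateral total, the orders were taken again with HPS5 and the feature ENSSSCG00000013369 left out, a choice made after seeing the data. Then 51 genes climbed and 35 declined of 902, of which 45 and 15 were the same as before, and COL9A1, COL11A2, SNORC, ACAN and CLEC3A kept their order in both libraries.

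Type I and III collagen went opposite ways in the 2 menisci. COL1A1 had 6896, 4604, 3397 and 1036 CPM over the bands in the medial and 2375, 3209, 3504 and 3846 CPM in the lateral white zone. Without HPS5 the lateral values were 2890.4, 3499, 3491 and 3953 CPM, no longer in order. COL3A1 had log2 differences of -0.48 in medial and 0.38 in lateral cells from the lowest to the highest band, and it too was out of order in lateral cells without HPS5. The difference between the menisci in this trend was not tested.

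**Figure D3:**
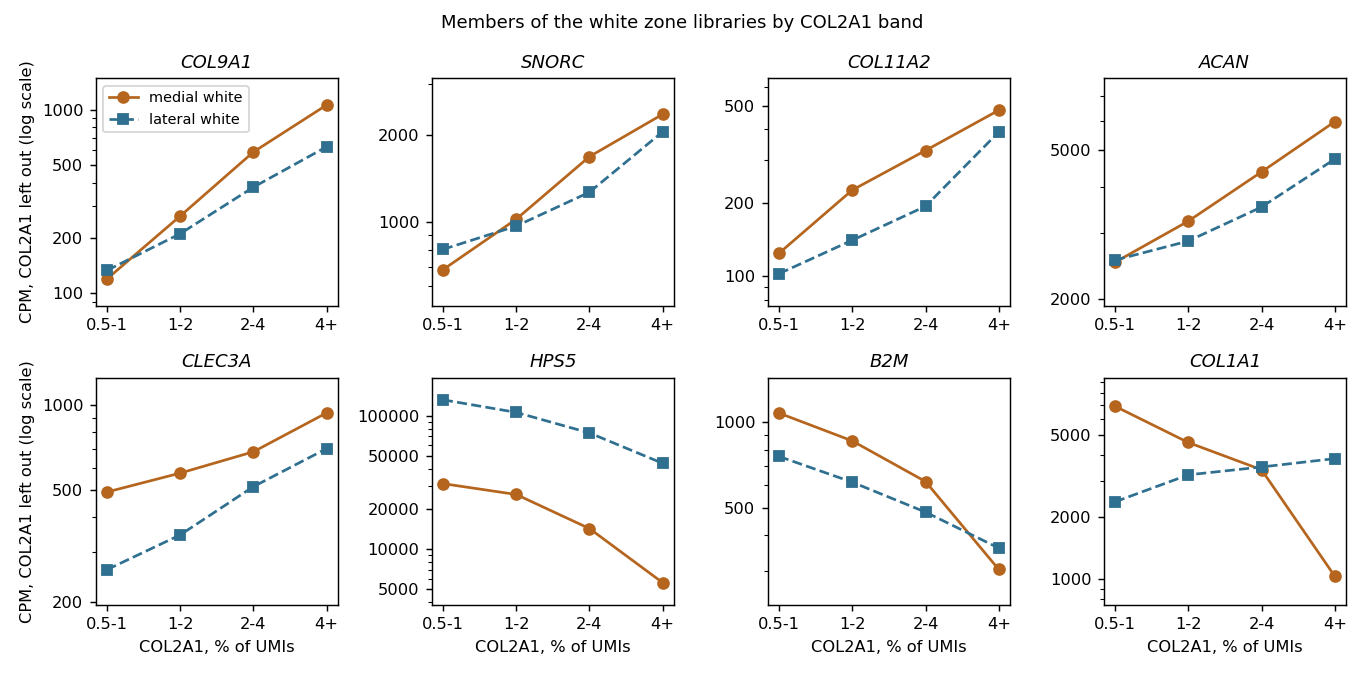
Levels of 8 genes (y axis, CPM with COL2A1 left out of the total, logarithmic) over the 4 COL2A1 bands (x axis, percent of UMIs) in COL2A1-high cells of the medial and lateral white zone. COL9A1, SNORC, COL11A2, ACAN and CLEC3A climb in both libraries, HPS5 and B2M decline in both, and COL1A1 declines in the medial and climbs in the lateral white zone.

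The rule itself removed cells with this matrix profile because of RGS5. Of cells with at least 0.5% COL2A1, 381 in the medial white, 228 in the lateral white, 2 in the medial red and 2 in the lateral red zone were left out by a gate, and RGS5 alone, a regulator of G-protein signalling best known from pericytes, was the reason for 365, 217, 0 and 1 of them. In the white zone the cells left out for RGS5 alone had 24907 and 17347 CPM of COL2A1, 1047 and 865 CPM of SNORC, 3182 and 2357 CPM of ACAN and 347 and 298 CPM of COL9A1, in the medial and lateral library. RGS5 was at 111 and 59.8 CPM in the COL2A1-high cells and at 1336 and 1106 CPM in the cells left out. Of the other mural genes TAGLN was at 38.7 and 20.9 CPM in COL2A1-high cells and at 52.5 and 48.8 CPM in those left out, which had few UMIs of the rest, with ACTA2 at 2.28 and 4.88 CPM, MYH11 at 0 and 3.25 CPM and NOTCH3 at 4.57 and 6.50 CPM. PECAM1 was at 0 and 3.25 CPM. Cells left out for RGS5 alone had, by definition, at most 1 UMI of ACTA2 and MYH11 together and passed the endothelial gate. Their low ACTA2, MYH11 and PECAM1 and their high RGS5 and COL2A1 were thus set by this choice, while TAGLN, NOTCH3 and the other cartilage genes were not. Of all white zone cells with at least 3 RGS5 UMIs and none of ACTA2 and MYH11, 191 of 364 (52.5%) in the medial and 107 of 194 (55.2%) in the lateral library had at least 0.5% COL2A1. In the COL2A1-high cells RGS5 and TAGLN made up nearly all of the mural marker sum of 154 and 82.9 CPM in the medial and lateral white zone. The cells left out were deeper, with medians of 1985 and 2292 UMIs, so a fixed limit of 1 UMI was met less easily by deeper cells. How far depth set their removal was not tested.

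**Figure D4:**
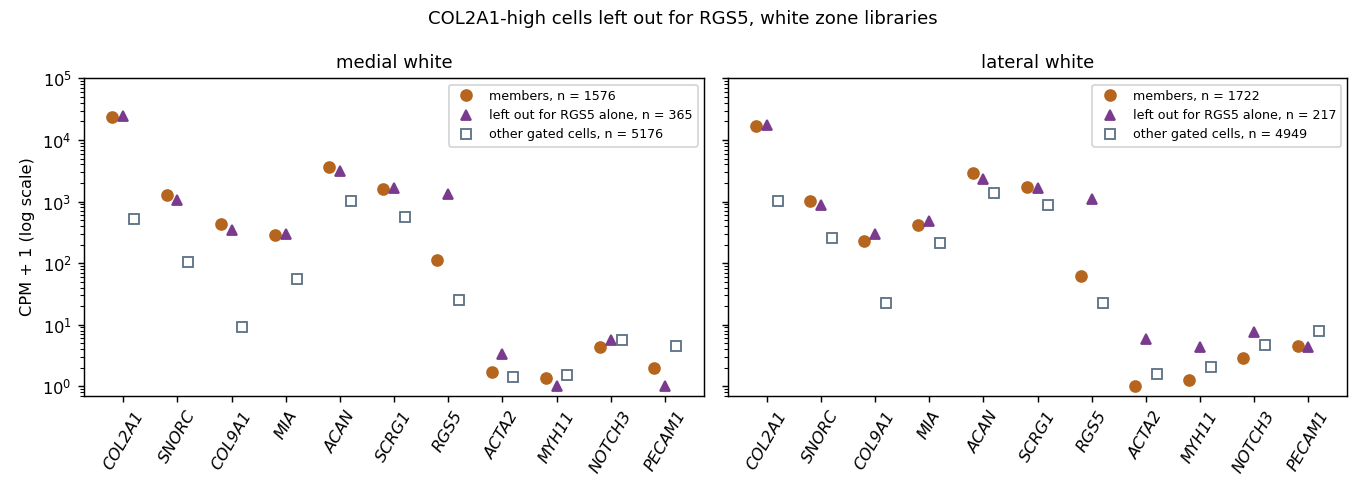
Levels of 11 genes (y axis, CPM + 1, logarithmic) in the medial and lateral white zone for COL2A1-high cells, for cells at 0.5% COL2A1 or more left out for RGS5 alone, and for the other gated cells. The cells left out lie close to the COL2A1-high cells in COL2A1, SNORC, COL9A1, MIA, ACAN and SCRG1 and differ in RGS5, while ACTA2, MYH11, NOTCH3 and PECAM1 stay under 10 CPM in all 3. The way the cells were chosen limits COL2A1, RGS5, ACTA2, MYH11 and PECAM1.

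Between zones, gene expression within COL2A1-high cells could hardly be compared, since the medial and lateral white zone cells held 2993969 and 3642455 UMIs, against 15873 and 98392 UMIs in the 14 and 43 red zone cells. Of 6888 genes tested with edgeR's quasi-likelihood test and Benjamini-Hochberg adjustment, with 1 residual degree of freedom, 1 (0.0145%) passed an adjusted p of 0.05, higher in white zone cells, and 0 passed lower, beside 167 with an unadjusted p below 0.05, while DESeq2 called 5 higher and 2 lower and edgeR without TMM scaling 6 higher and 9 lower. The gene called was ENSSSCG00000029449, which has no symbol. It had 724 CPM in the medial white and 1555 CPM in the lateral white zone library, against no UMI in the medial red and 244 CPM in the lateral red zone library. The edgeR log2 difference was 3.47 ± 0.70 (SE, derived from the test's F statistic) and the adjusted p 0.0043. The gene was not called with DESeq2, at a COL2A1 threshold of 1%, without the lateral white or without the medial red zone library. In a simulation of this design the zone test found 0 of 87 genes changed 2-fold and 1 of 82 changed 4-fold, so a gene that was not called may still differ by that much.

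Of the genes named by the size of their difference between zones, none passed as reported. TXNIP had 279 and 229 CPM in the medial and lateral white zone libraries, against 63.0 and 20.3 CPM, from 1 and 2 UMIs, in those of the red zone. Its log2 difference was 3.49 ± 0.93 with an edgeR adjusted p of 0.186, and 5 of 15 alternatives called it, at adjusted p from 0.00475 to 0.546. ISG12(A), the interferon-induced gene that was also low against other gated cells, had 14.4 and 20.04 CPM in the medial and lateral white zone libraries, against 63.0 and 172.8 CPM in those of the red zone. Its log2 difference was -2.68 ± 0.65 with an edgeR adjusted p of 0.0712, and 4 of 15 alternatives called it, at adjusted p from 2.41e-06 to 1.00. CRABP1 had 25.1 and 34.9 CPM, against 252 and 132 CPM in the red zone libraries, with an edgeR adjusted p of 1.00. White and red zone values did not overlap in these 3 genes, and the medial red values rest on 1 to 4 UMIs. The 3 genes were taken from the largest differences whose sign was shared by the medial and lateral menisci. That choice favours values that do not overlap, so their separation is a description only. How many of all tested genes separate in this way was not counted. COL1A1 stood at 4307 and 2892 CPM in the medial and lateral white zone libraries, against 20349 and 9899 CPM in those of the red zone, with an edgeR log2 difference of -1.45 ± 0.54 and an adjusted p of 1.00. DESeq2 called both COL1A1 and its partner chain COL1A2 lower in the white zone, with log2 differences of -1.56 and -0.88 and adjusted p of 2.63e-09 and 0.00276, and of the 18 tested genes of the fibrous matrix list these were its only calls. No gene of the cartilage fibril collagen list (5 tested) or of the non-collagen cartilage matrix list (12 tested) was called by edgeR or DESeq2 or had an unadjusted edgeR p below 0.05.

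Between menisci, SHOX2 was lower in medial COL2A1-high cells. Of the same 6888 genes, 35 (0.508%) were called by edgeR, 14 (0.203%) higher and 21 (0.305%) lower in the medial meniscus, beside 375 with an unadjusted p below 0.05 and 3 called by DESeq2, all lower, and without TMM scaling 31 were higher and 26 lower. SHOX2, a homeobox factor of limb and skeletal patterning, had 2.67 CPM from 8 UMIs in the medial white and 189 CPM from 3 UMIs in the medial red zone library. In the lateral meniscus it had 101.3 CPM from 369 UMIs in the white and 213 CPM from 21 UMIs in the red zone library. The log2 difference was -4.37 ± 0.81 with an edgeR adjusted p of 7.58e-05, and it ranged from 3.14e-12 to 0.0614 over the alternatives, the last with DESeq2. The difference lay in the white zone pair, since the log2 difference was -0.86 without the medial or without the lateral white zone library and -5.30 without either red zone library. The other gated cells showed the same white zone pattern, with 2.69 CPM in the medial library and 93.1 CPM in the lateral one, while the red zone libraries had 69.7 CPM for medial and 108 CPM for lateral.

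Most of the other calls between menisci rest on the white zone alone. Of the 35 genes, 32 had fewer than 10 UMIs in the red zone libraries together, 8 had none there, 16 moved the same way in white and red zone, and 3 had a mean of at least 50 CPM. CLDN10, a claudin, had 3.01 CPM (medial white) and no UMI (medial red), against 53.5 CPM (lateral white) and 30.5 CPM (lateral red), with a log2 difference of -4.21 ± 0.45 and an edgeR adjusted p of 5.1e-17. MSMP, a small secreted chemoattractant, had 8.02 and 85.4 CPM in the medial and lateral white zone and no UMI in the red zone. CXCL14, a chemokine, had 2.67 and 22.2 CPM in the medial and lateral white zone, with 0 and 1 UMI in the medial and lateral red zone. On the higher side, TNXB, tenascin X, had 40.1 CPM (medial white) and 63.0 CPM (medial red), against 6.04 CPM (lateral white) and 10.2 CPM (lateral red), and the water channel AQP1 had 30.7 and 63.0 CPM, against 5.49 and 10.2 CPM, each with 1 UMI in either red zone library. Of the lists, SHOX2 and CXCL14 were the only called members, both lower in the medial meniscus, and 0 of 5 fibril collagens and 0 of 12 non-collagen cartilage matrix genes were called or had an unadjusted p below 0.05 with edgeR, and 0 were called with DESeq2. In the simulation the meniscus test found 9 of 100 genes changed 2-fold and 35 of 85 changed 4-fold.

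The feature named HPS5 took a large part of all UMIs. In COL2A1-high cells it had 20582 CPM (medial white) and 10080 CPM (medial red), against 105876 CPM (lateral white) and 40237 CPM (lateral red), with a log2 difference of -2.57 ± 0.62 and an edgeR adjusted p of 0.0112, from 1.11e-35 to 0.603 over the alternatives, the last at a COL2A1 threshold of 0.25%. The other gated cells had more of it than COL2A1-high cells in 3 of 4 libraries, with 36325, 147853, 13006 and 30277 CPM in the medial white, lateral white, medial red and lateral red zone. HPS5 codes for a subunit of a lysosome-related organelle complex. In the RefSeq annotation of Sscrofa11.1 it lies on chromosome 2 from 40906785 to 40938847, followed by the acute-phase genes SAA2 from 40972797 to 40976222, SAA4 from 40986869 to 41003059 and SAA3 from 41021349 to 41025950. The serum amyloid A genes were not analysed here, and whether HPS5 counts hold reads of its neighbours was not tested.

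With 1576 and 1722 cells, the white zone pair could be compared in depth, though 1 library of each meniscus leaves no test and the intervals cover counting error only. Of 1955 genes, 15 (0.767%) were at least 2-fold higher and 18 (0.921%) at least 2-fold lower in the medial than in the lateral library, with 20 CPM added. CILP had 2568 against 619 CPM, a ratio of 4.15 (95% interval 3.96 to 4.35), and ASPN, a leucine-rich protein that binds collagen, had 181 against 44.5 CPM, a ratio of 4.08 (3.42 to 4.89). TGFBI, an adhesive matrix protein, had 690 against 239 CPM, OGN, mimecan, 338 against 113 CPM, and CCDC80, a secreted matrix protein, 779.6 against 307 CPM. TNC, the hexameric matrix glycoprotein tenascin C, had 1428 against 643 CPM, a ratio of 2.22 (2.11 to 2.33), although in the red zone libraries it stood at 567 CPM for medial and 996 CPM for lateral cells. PSAT1, of serine synthesis, had 263 against 94.7 CPM and HMOX1, haem oxygenase, 351 against 130.1 CPM. CILP, ASPN and OGN were the 3 of 12 compared genes of the fibrocartilage and leucine-rich list that were at least 2-fold higher, and 0 were lower. In the red zone libraries CILP and HMOX1 kept this direction. TGFBI was reversed there like TNC, with 63.0 CPM for medial and 254 CPM for lateral cells, and so was CCDC80, with 63.0 and 396 CPM. ASPN, OGN and PSAT1 had no UMI in medial red cells, against 1, 7 and 3 UMIs in lateral red cells.

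Lower in the medial white zone were SHOX2, HPS5 and a group of secreted proteins. CHI3L1, a chitinase-like secreted glycoprotein of stressed cartilage, had 53.4 CPM in the medial against 267 CPM in the lateral library, a ratio of 0.20 (0.17 to 0.24). FRZB, an antagonist of WNT ligands, had 75.5 against 269 CPM, and MMP3 209 against 575 CPM. SPP1, osteopontin, had 2406 against 5767 CPM, a ratio of 0.42 (0.41 to 0.43), LCN2, lipocalin 2, 312 against 745 CPM, and ECRG4, a secreted hormone-like protein, 247 against 759 CPM. The immediate-early gene FOSB had 67.8 against 159 CPM. FRZB, SPP1, LCN2 and FOSB went the other way in the red zone. They had 630, 2457, 315 and 378 CPM in medial red cells, against 417, 2155, 254 and 122 CPM in lateral red cells. SHOX2, HPS5, CHI3L1, MMP3 and ECRG4 kept the direction there. The cartilage markers differed by less than 2-fold, with COL9A1 at 424 against 231 CPM, SNORC at 1279 against 1009 CPM, ACAN at 3666 against 2918 CPM and MIA at 287 against 412 CPM. In the fit over 4 libraries CILP had a log2 difference of 1.08 ± 0.60 and CHI3L1 of -2.50 ± 0.76, with edgeR adjusted p of 1.00 and 0.117, so neither passed. Over the alternatives the adjusted p ran from 0.00273 to 1.00 for CILP and from 0.00279 to 1.00 for CHI3L1. Without the medial or without the lateral white zone library the CILP log2 difference was -0.19 after TMM scaling. Only the red zone pair compares the menisci there, and in CPM it kept the sign, with 630 CPM for medial and 447 CPM for lateral cells.

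**Figure D5:**
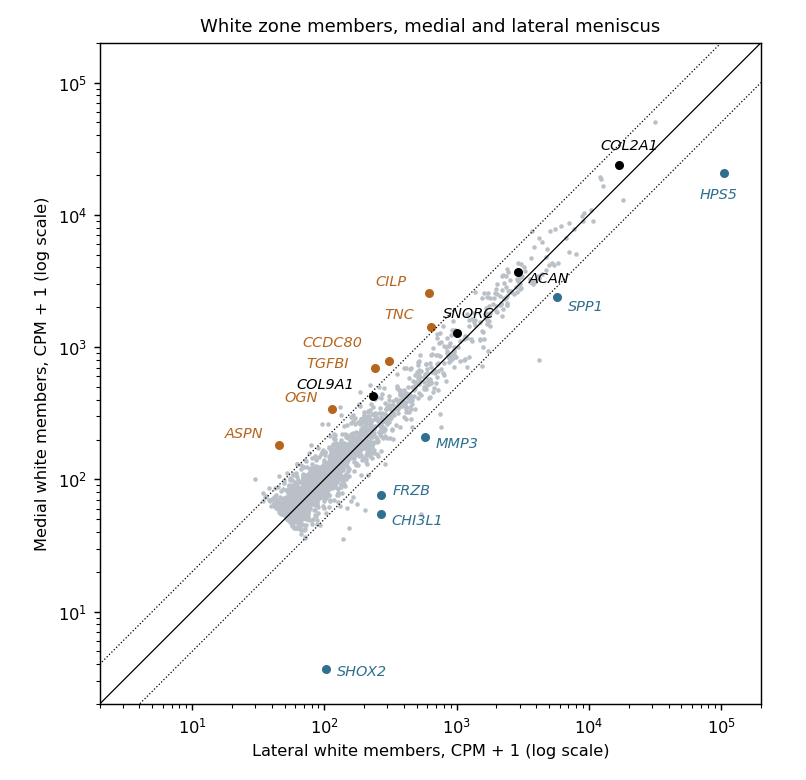
Level of each gene with a mean of at least 50 CPM in COL2A1-high cells of the medial white zone (y axis, CPM + 1, logarithmic) against the lateral white zone (x axis, CPM + 1, logarithmic), with equality as a solid line and 2-fold as dotted lines. CILP at 2568 against 619 CPM and ASPN at 181 against 44.5 CPM lie above the upper dotted line, and SHOX2 at 2.67 against 101.3 CPM and HPS5 at 20582 against 105876 CPM below the lower one.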

How the data were processed

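UMI counts per gene and barcode were deposited as filtered matrices that the authors made with Cell Ranger 6.1.2 on Sscrofa11.1, per the submitters' processing notes. Of 21280 features 14811 carried a symbol, 688 took one from a reference table and 5781 had none. The rule was applied to barcodes with at least 200 genes, and counts were summed per library over COL2A1-high cells, other gated cells and CILP-high cells (Python 3.11.15, numpy 2.4.6, scipy 1.17.1, scanpy 1.11.5). CPM is per 1e6 UMIs of the summed cells, and folds add 20 CPM to both sides. Summed counts of COL2A1-high cells were tested with edgeR 4.0.16 (R 4.3.3, filterByExpr, TMM factors 0.851, 0.802, 1.54 and 0.952 for medial white, lateral white, medial red and lateral red) for zone and meniscus in 1 model, with DESeq2 1.42.0 as an alternative, and a call is an adjusted p below 0.05. COL2A1 and the gate genes got no call. Each SE of an edgeR log2 difference is the size of that difference divided by the square root of its F statistic. It is therefore no separate estimate of the spread between libraries. The zone fit keeps the meniscus as a block, since lateral and medial libraries pair the zones by label. The fit was tested on simulated counts with known changes and made 0 false calls among 6597 genes for the zone and 6616 for the meniscus. The simulated libraries shared the same gene profile apart from the set changes, and each gene had the spread given by the trend over genes. False calls from differences in composition between libraries, or from genes that spread more than the trend, were therefore not tested. The 0 false calls carry no support for the calls in the data.

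Genes with at least 50 CPM on average, the same direction in both pairs and a call were named, up to 12 per direction, and with fewer than 6 such genes the 8 largest differences are values with no call. Folds between cell groups named the 15 highest and 10 lowest genes of at least 100 CPM. Other called genes and the white zone pair were named after their values were seen. The cells and the gene lists were chosen with earlier results of these data known. Alternatives were other COL2A1 thresholds, stricter gates, quality filters, doublet calls, scaling, filters and left-out libraries. Chosen after seeing the data were a gate without RGS5 and counting without HPS5.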

Additional observations from a re-analysis of the deposited data

Results flagged for a closer look

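Some genes in COL2A1-high cells moved in opposite directions in the 2 pairs of libraries, medial with lateral or white with red. None of these differences was tested, and all values of the medial red zone rest on 14 cells. The log2 difference of medial over lateral was -0.46 in the white and 2.43 in the red zone for TNNI2, -0.089 and 0.63 for SCRG1, 0.72 and -0.90 for FN1, 0.10 and -1.03 for ENO1, -0.42 and 2.47 for PPP1R15A, -0.87 and 1.28 for NFKBIA, -0.23 and 1.13 for LBP, -0.64 and 1.80 for ISG15, 0.26 and -1.35 for B2M, and -0.40 and 3.43 for GREM1. The log2 difference of white over red was 1.30 in the medial and -0.62 in the lateral meniscus for TNC, -1.82 and 1.07 for PPP1R15A, -0.96 and 0.40 for LBP, and -2.90 and 0.93 for GREM1.

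Across the COL2A1 bands of the white zone, 7 listed genes moved in opposite ways in the medial and lateral library, again with no test. The log2 difference of the highest over the lowest band was -0.042 in the medial and 0.43 in the lateral library for BGN, -0.039 and 0.78 for CILP2, -2.71 and 0.69 for COL1A1, -0.48 and 0.38 for COL3A1, 0.57 and -0.45 for ECRG4, -0.53 and 0.28 for PRELP, and 0.40 and -0.24 for SLC7A11.

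Cells with at least 0.5% COL2A1 also stood outside the gates, 381 in the medial white, 228 in the lateral white, 2 in the medial red and 2 in the lateral red zone.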

How the results depend on the processing

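The number of COL2A1-high cells in the medial and lateral white zone was 1968 and 2366 at a COL2A1 threshold of 0.25% of UMIs, 1117 and 1036 at 1%, 1233 and 1493 where the gates allow 0 UMIs, and 1941 and 1939 with RGS5 out of the gate. Without HPS5 in the totals the lateral white zone had 1849. Genes called between zones, 1 as reported, numbered 7 with DESeq2, 15 without scaling (6 higher and 9 lower), 6 without a filter on low counts, 13 at the 0.25% threshold, 5 with RGS5 out of the gate, 1 at the 1% threshold, a different gene and lower, and 13 with no replicate block, that is, without the meniscus term. Leaving out 1 library at a time gave 5 to 47 zone calls (5 without medial white, 6 without lateral white, 5 without medial red and 47 without lateral red, where the median log2 difference of all genes was 6.65). TMM scaling put the median log2 difference of all genes between zones at 0.34, against -0.05 without scaling. Genes called between menisci, 35 as reported, numbered 3 with DESeq2, 57 without scaling (31 higher and 26 lower), 15 at the 1% threshold and 64 with RGS5 out of the gate. Leaving out a library left no residual degree of freedom for the menisci, so no test was made. Genes ordered over the bands numbered 51 upwards and 35 downwards without HPS5. Quality filters and doublet removal took out no COL2A1-high cell. The cells, and so these counts, stayed the same by construction, and robustness to either step was not tested. Of the called genes, the log2 difference was recomputed for SHOX2 and HPS5, neither of which changed sign. The uncalled CILP, ADAMTS2 and COLGALT2 changed sign between menisci without a white zone library (lowest log2 differences -0.19, -0.05 and -0.05). The causes were not tested. Depth limits the zone comparison, since the red zone cells held 15873 and 98392 UMIs.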
